A study of Sus scrofa with 16 samples.

Results

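The granins are acidic proteins of the regulated secretory pathway that are stored with peptide hormones in dense-core granules of endocrine cells and neurons, and 6 genes of this kind were followed in the pig pituitary: CHGA, CHGB, SCG2, SCG3, SCG5 and VGF. They were found by symbol among the 25880 genes of the raw count table, all 6 were present, and all 6 passed the filter on low counts. The libraries came from whole pituitaries of unrelated Puławska gilts, a native Polish breed, with 8 animals of low feed conversion ratio (LFC, replicates 1 to 8) and 8 of high feed conversion ratio (HFC, replicates 9 to 16). A higher ratio means more feed eaten per unit of weight gained. All animals were female and the labels name no allele or treatment. They had come from different farms and were kept under the same housing and feeding at 1 test station. The labels give an age of 3 months for all 16, while the methods of the study describe older animals at slaughter. The question was whether mRNA of the granule proteins differed between the feed conversion groups, and whether it varied with the hormone transcripts POMC, PRL and FSHB.

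Secretory granules bud from the trans-Golgi network, where granins aggregate at low pH and high calcium together with the prohormones and help to form the dense core. Inside the granule the prohormone convertases and carboxypeptidase E cut the cargo into active peptides, and a rise in calcium then triggers fusion with the plasma membrane. In the anterior pituitary every endocrine cell type uses this route, so corticotrophs that make POMC, lactotrophs that make prolactin and gonadotrophs that make the FSH beta subunit all carry granins, in different mixtures.

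Sequencing depth ran from 10972583 to 23060458 counts per library, and the members were counted deeply. The fewest reads of any member in any library were 1131, for VGF, and the most were 600081, for CHGB. Levels are given as CPM, counts scaled to a common library size with TMM factors, and are compared between libraries of the same gene only, since transcript lengths were not used here. The labelled tissue was checked against its hormone markers, and POMC, PRL, GH1, CGA and FSHB were measured in every library. HFC replicate 16 stood apart with 243007 CPM of POMC and 276 CPM of PRL, and LFC replicate 5 and HFC replicates 13 and 14 lay apart on the first principal component of all genes. These are bulk libraries, in which fewer cells of a type and less RNA per cell cannot be told apart.

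CHGA and CHGB encode the chromogranins, the main structural proteins of the dense core. CHGA (ENSSSCG00000002456, chromosome 7, 114345091 to 114358571 of Sscrofa11.1) is also the precursor of pancreastatin and other peptides. Its lowest, median and highest values were 1124, 1820 and 5212 CPM in LFC and 246, 3321 and 4903 CPM in HFC. The groups overlapped over the whole LFC range except its single highest library. Within HFC, 5 libraries lay above the LFC mean, at 3252 to 4903 CPM, and the other 3 lay at 934, 930 and 246 CPM. CHGA was therefore the member with the widest spread among HFC libraries, with an SD of 1.55 on the log2 scale against 0.40 for the median gene, and 98.0% of genes had a smaller SD in HFC. The fitted difference was a log2 fold change, HFC against LFC, of 0.43 with an SE of 0.49 (edgeR quasi-likelihood test, adjusted p = 0.9999). The difference in mean log2 CPM was 0.11 (exact permutation p = 0.869), and limma-voom gave a log2 fold change of 0.12. The edgeR value was 0.79 without LFC replicate 5 and 0.27 without HFC replicate 13, the highest library of each group.

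CHGB (ENSSSCG00000039779, chromosome 17, 14747282 to 14761995) was the steadiest member among LFC libraries. Its lowest, median and highest values were 20092, 24237 and 27056 CPM in LFC and 10541, 19876 and 23354 CPM in HFC. Its SD in LFC was 0.15 on the log2 scale, and 6.31% of genes had a smaller one. All 8 HFC libraries lay below the LFC mean of log2 CPM, as for 0.859% of all genes tested, but the ranges overlapped. With total counts in place of TMM scaling 6 of 8 did, and without LFC replicate 2 it was 7 of 8. The log2 fold change was -0.32 with an SE of 0.15 (edgeR quasi-likelihood test, unadjusted p = 0.0506, adjusted p = 0.857). The difference in mean log2 CPM was -0.35 (exact permutation test, two-sided, p = 0.00622), and after adjustment over all genes tested the exact p was 0.995. With total counts the unadjusted exact permutation p was 0.0325. Without HFC replicate 16, the lowest library, the difference was -0.24 (exact permutation p = 0.0123).

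**Figure D1:**
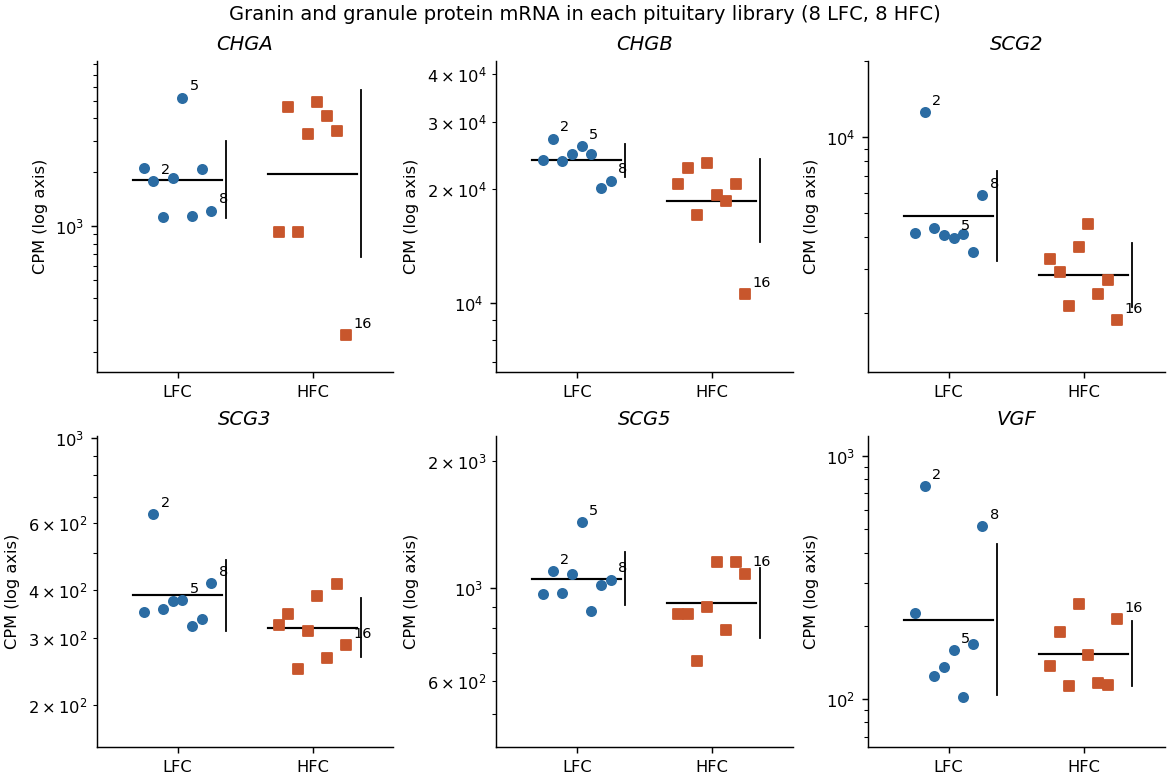
CPM of the 6 members in each library on log axes, with LFC libraries as circles and HFC libraries as squares, the horizontal line at the mean of log2 CPM and the vertical bar 1 SD either side. Numbers mark LFC replicates 2, 5 and 8 and HFC replicate 16, and the groups overlap for every member.

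SCG2 encodes secretogranin II, the precursor of secretoneurin, and SCG3 encodes secretogranin III, which binds CHGA and cholesterol-rich granule membrane and so takes part in sorting. SCG2 (ENSSSCG00000023032, chromosome 15, 125420773 to 125426303 by RefSeq) had the largest fold relative to its error among the members. Its lowest, median and highest values were 3506, 4139 and 12517 CPM in LFC and 1869, 2820 and 4506 CPM in HFC. All 8 HFC libraries lay below the LFC mean of log2 CPM, as for 0.859% of all genes tested. Without LFC replicate 2 it was 7 of 8. HFC replicates 12 and 13 reached into the LFC range at 3652 and 4506 CPM. LFC replicate 2 was the highest, and LFC replicate 8 was next at 5859 CPM. The other LFC libraries lay below the LFC mean as well.

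The log2 fold change of SCG2 was -0.86 with an SE of 0.27 (edgeR quasi-likelihood test, unadjusted p = 0.00476, adjusted p = 0.612). It did not pass the threshold over all genes with edgeR, DESeq2 (adjusted p = 0.190) or limma-voom (adjusted p = 0.9998). The difference in mean log2 CPM was -0.78 (exact permutation test, p = 0.0028, and 0.982 after adjustment over all genes tested). Without LFC replicate 2 the log2 fold change was -0.55 with an SE of 0.19 (edgeR, adjusted p = 0.902), closer to 0 than with all libraries. Without LFC replicates 2 and 8 together the difference in means was -0.51 (exact permutation p = 0.0157).

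SCG3 (ENSSSCG00000004630, chromosome 1, 120042435 to 120138175) followed the same order of groups with a smaller difference. Its lowest, median and highest values were 322, 366 and 632 CPM in LFC and 249, 319 and 416 CPM in HFC. HFC lay below the LFC mean in 7 of 8 libraries, and the highest value was again LFC replicate 2. The log2 fold change was -0.29 with an SE of 0.15 (edgeR, adjusted p = 0.897), and -0.16 without LFC replicate 2.

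SCG5 encodes 7B2, the chaperone that brings the convertase PCSK2 to its active form, and VGF encodes a granin-like precursor of neuroendocrine peptides. SCG5 (ENSSSCG00000004807, chromosome 1, 136525961 to 136590965) had the smallest fold change of the members. It was measured at 882, 1030 and 1432 CPM as the lowest, median and highest values in LFC, and at 669, 882 and 1153 CPM in HFC. HFC lay below the LFC mean in 5 of 8 libraries, and the log2 fold change was -0.18 with an SE of 0.14 (edgeR, adjusted p = 0.9999), or -0.11 without LFC replicate 5, its highest library.

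VGF (ENSSSCG00000039053, chromosome 3, 8888502 to 8891399 by RefSeq) had a group difference that rested on a pair of libraries. The lowest, median and highest values were 102, 164 and 752 CPM in LFC and 113, 144 and 247 CPM in HFC. LFC replicates 2 and 8 stood at 752 and 515 CPM, and the other 6 LFC libraries lay between 102 and 226 CPM, inside or just below the HFC range. The log2 fold change was -0.77 with an SE of 0.39 (edgeR, adjusted p = 0.894) and -0.35 without LFC replicate 2, and limma-voom gave -0.46. The difference in mean log2 CPM was -0.46 (exact permutation p = 0.287), and without LFC replicates 2 and 8 it turned to 0.055 (exact permutation p = 0.809).

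Across the 6 members, 5 had a log2 fold change below 0 and 1, CHGA, above it, and the median was -0.31 against -0.01 over the 14319 genes tested. A value below 0 was found for 51.6% of all genes. By edgeR's quasi-likelihood test 0 members were called at an adjusted p of 0.05 with a fold of at least 1.3, where 0% of all genes were called. DESeq2 called 5 genes and limma-voom called 0, none of them a member. At an unadjusted p under 0.05 edgeR gave 1 member, SCG2, and 5.82% of all genes, with 1.53% of all genes lower in HFC and 4.29% higher. At an exact permutation p under 0.05 stood CHGB and SCG2, both lower in HFC, against 4.37% of all genes in either direction and 1.82% in that direction. With total counts SCG5 joined them (exact permutation p = 0.0213, against 0.142 with TMM scaling). The shares of all genes given here are with TMM scaling, and those of the exact permutation test with total counts were not computed. For 0 members did the LFC and HFC ranges fail to overlap, against 0.0210% of all genes. Without the 4 libraries that stood apart (LFC replicate 5 and HFC replicates 13, 14 and 16) the log2 fold changes were 0.69 for CHGA, -0.18 for CHGB, -0.91 for SCG2, -0.28 for SCG3, -0.18 for SCG5 and -0.86 for VGF, and 0 members were called.

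**Figure D2:**
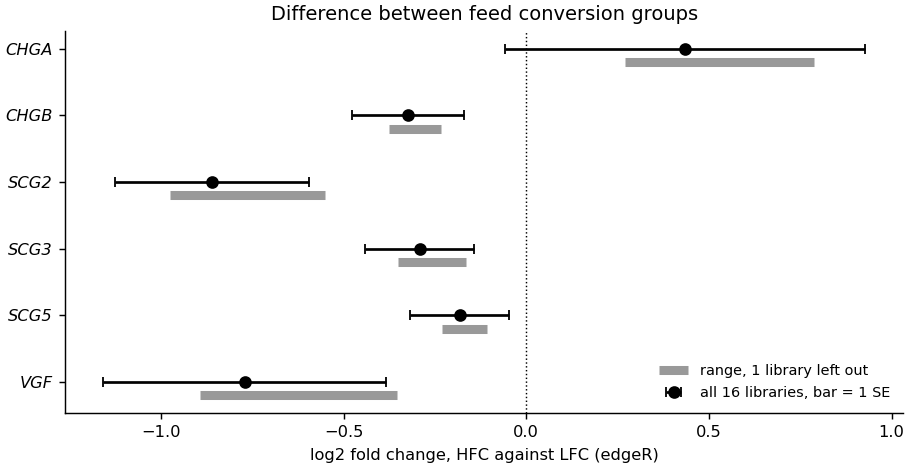
Log2 fold change of each member, HFC against LFC, from edgeR, with bars of 1 SE for all 16 libraries and a grey bar for the range when 1 library is left out. CHGA lies above 0 and the other 5 lie below it, and no grey bar crosses 0.

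The libraries that stood apart did not do so for every member alike. LFC replicate 2 was the highest LFC library for CHGB, SCG2, SCG3 and VGF, and LFC replicate 5 was the highest for CHGA and SCG5. LFC replicates 2 and 8, high in SCG2 and VGF, were also the highest of all libraries in PRL, at 81061 and 67186 CPM. HFC replicate 16 was the lowest of all libraries in CHGA, CHGB and SCG2 but lay at 1080 CPM in SCG5, above the LFC median, and at 213 CPM in VGF.

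Cell type markers differed in HFC replicate 16 and in LFC replicate 5 as well. Summed corticotroph and melanotroph markers (6 of 6 tested) were 6114 to 77803 CPM in LFC and 23264 CPM at the lowest in HFC. HFC replicate 16 had the highest sum at 243738 CPM, of which POMC alone gave 243007 CPM. Its gonadotroph and thyrotroph markers (5 of 8 tested, with LHB, GNRHR and FOXL2 not analysed here) summed to 2246 CPM, against 17127 to 35639 CPM in LFC and a median of 20682 CPM in HFC. Its lactotroph and somatotroph markers (6 of 6 tested) summed to 12282 CPM, against 17273 to 138664 CPM in LFC and 11637 to 142039 CPM in HFC. Pituicyte and glia markers (8 of 10 tested) summed to 3931 CPM there, against 233 to 1353 CPM in LFC and 117 to 3931 CPM in HFC, with RAX at 0 in the median LFC library. Across the groups 7 of these 8 markers were higher in HFC, the median log2 fold change was 2.04 and 0 passed the threshold, beside the lower CHGB and SCG2 values of HFC. LFC replicate 5, the highest in CHGA and SCG5, was the highest LFC library in most lists of summed markers. These were pituicytes (1353 CPM), corticotrophs and melanotrophs (77803 CPM, with POMC at 77318 CPM), erythrocytes (1275 CPM) and microglia and macrophages (482 CPM). It was also the highest for endothelium (321 CPM), neurons (321 CPM) and oligodendrocytes and Schwann cells (190 CPM). It was not for fibroblasts, for gonadotrophs and thyrotrophs, or for lactotrophs and somatotrophs. The part of cell type make-up in the granin values was not tested.

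POMC, PRL and FSHB themselves are given for orientation. POMC (ENSSSCG00000021155), the precursor of ACTH and the melanotropins, had lowest, median and highest values of 5926, 19896 and 77318 CPM in LFC and 22878, 47497 and 243007 CPM in HFC. PRL (ENSSSCG00000039721), prolactin, was measured at 6639, 27967 and 81061 CPM in LFC and at 276, 6225 and 31747 CPM in HFC. FSHB (ENSSSCG00000013328), the FSH beta subunit, was measured at 1979, 2743 and 7013 CPM in LFC and at 516, 1842 and 6530 CPM in HFC. The groups overlapped for each hormone.

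The relation of the members to each hormone was first fitted across all genes, with a slope on the hormone's log2 CPM and a term for the feed conversion group. A slope of 1 would mean that a gene doubled when the hormone did. Of the 6 members 0 were called for POMC, where 4.13% of all genes were called at an adjusted p of 0.05. For PRL 0 members were called against 0.0140% of genes, and for FSHB 0 members against 0% of genes. At an unadjusted p under 0.05 these shares of all genes were 24.7% for POMC, 7.11% for PRL and 8.82% for FSHB, with 0 members in each. With total counts in place of TMM scaling CHGB was under it for all 3 hormones, with a slope of -0.23 on POMC (unadjusted p = 0.00888), 0.11 on PRL (0.0349) and 0.20 on FSHB (0.0219), and SCG2 on PRL with 0.17 (0.0296), and again 0 members passed after adjustment. The shares above are with TMM scaling, and those at an unadjusted p with total counts were not computed. These unadjusted member values therefore have no background share. At an adjusted p of 0.05, total counts gave 151 of 14318 genes for POMC, 4 for PRL and 0 for FSHB. POMC made up 22.0% of all counts in HFC replicate 16. With TMM, the smallest unadjusted p among the members was 0.0573, for SCG2 on PRL, with a slope of 0.16 and an SE of 0.08 (edgeR, adjusted p = 0.735).

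The slope of CHGA on POMC depended on which libraries were fitted. Over all 16 libraries the slope was 0.27 with an SE of 0.27 (edgeR, adjusted p = 0.534). Without HFC replicate 16, which had the most POMC and the least CHGA, the slope was 0.55 with an SE of 0.18 (edgeR, adjusted p = 0.0335), and CHGA was then the 1 member called. Without LFC replicate 5 the slope was -0.13 (edgeR, adjusted p = 0.960), and without LFC replicate 5 and HFC replicates 13, 14 and 16 together it was 0.27 (adjusted p = 0.953). In the fit without HFC replicate 16, 28.7% of all genes were called, so this share is the background of the CHGA call. For PRL and FSHB 0 members were called without that library, against 0.0139% and 0% of genes.

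The same contrast appeared in the correlations. Pearson's r of log2 CPM between CHGA and POMC was -0.06 and Spearman's rho 0.34 over 16 libraries (permutation tests, adjusted p = 0.853 and 0.421). Within LFC r was 0.89 (exact permutation p = 0.00223), and within HFC it was -0.59 (exact permutation p = 0.130). Without LFC replicate 6 and HFC replicate 16, the 2 libraries farthest from the median of POMC, r was 0.57 (permutation p = 0.0344). CHGA values therefore ran with POMC among the LFC libraries, from LFC replicates 3 and 6 with low values of both to LFC replicate 5 with the highest of both, and ran apart from it in HFC replicates 11 and 16.

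SCG5 also ran with POMC within LFC, with r of 0.86 (exact permutation p = 0.00742), against 0.18 within HFC and 0.16 over all libraries. LFC replicate 5 was highest in both genes, and without it r over all libraries was 0.01. The remaining members had r between 0.16 and 0.37 with POMC within LFC. Differences between the groups in these correlations were not tested.

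**Figure D3:**
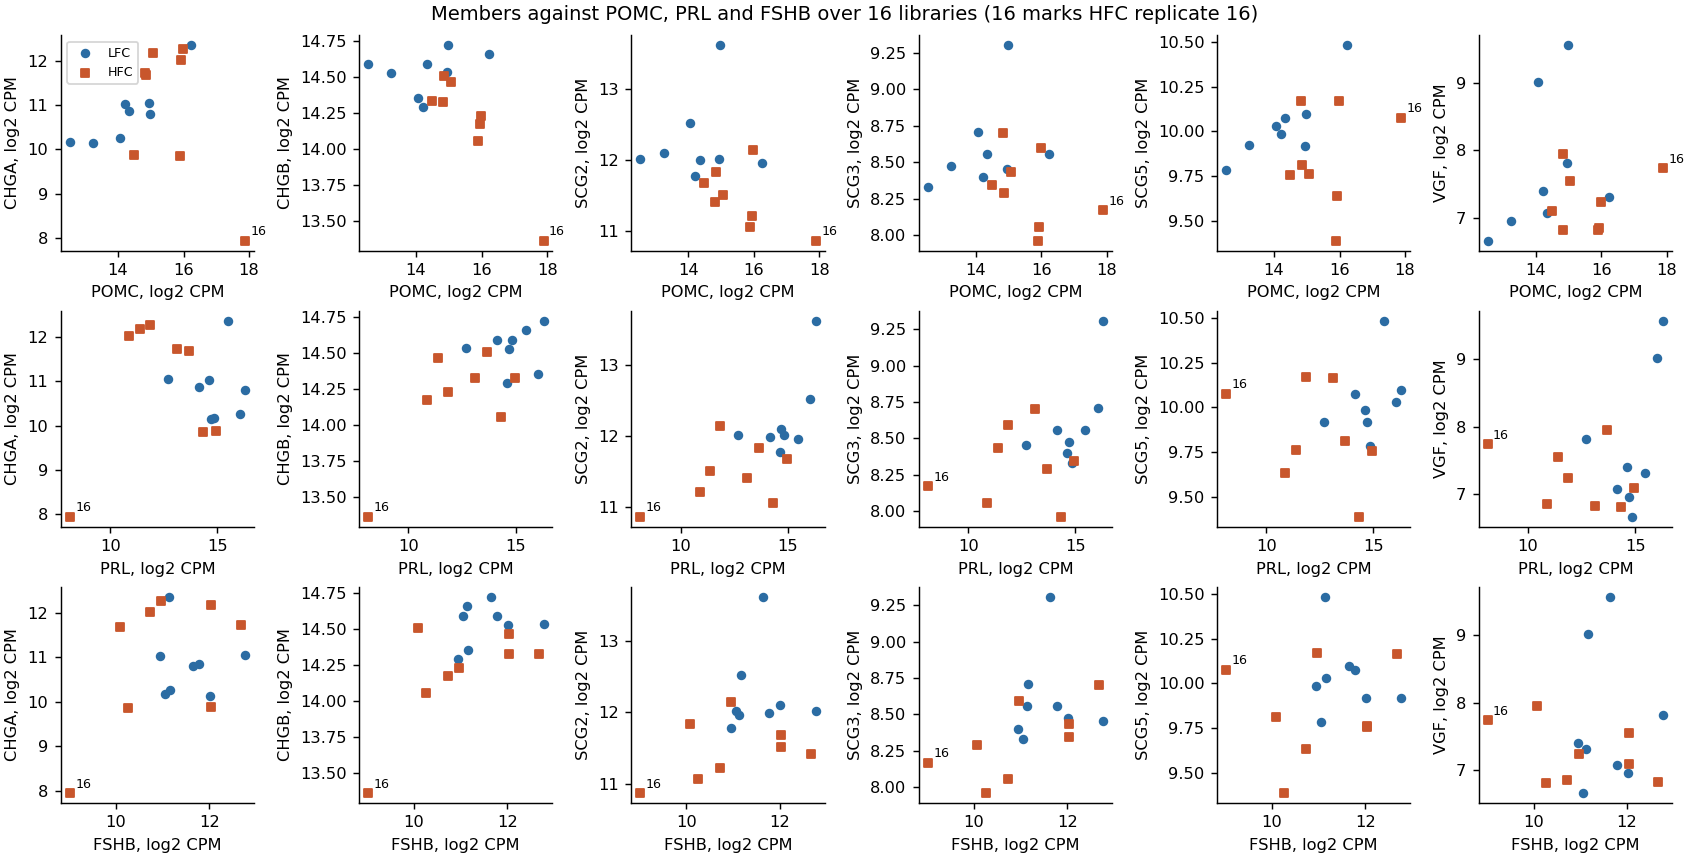
Log2 CPM of each member (vertical axis, 1 column of panels per gene) against log2 CPM of POMC, PRL and FSHB (horizontal axis, 1 row of panels per hormone) in 8 LFC (circles) and 8 HFC (squares) libraries. HFC replicate 16 lies at an edge of every panel, with the highest POMC and the lowest PRL and FSHB.

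Of the 18 correlations of members with hormones, 4 had an adjusted p for r at or below 0.05 and 0 had one for rho. The 35 relations were adjusted together by the Benjamini-Hochberg method. These correlations had no group term. The same shares over all genes were not computed, so the counts are not read as particular to the members. CHGB accounted for 3 of the 4. Its r was -0.66 with POMC, 0.73 with PRL and 0.65 with FSHB (permutation tests, adjusted p = 0.0366 for each), while rho was -0.35, 0.58 and 0.46. These values rested largely on HFC replicate 16. Without the 2 libraries farthest from each hormone's median, r was -0.26 with POMC, 0.29 with PRL and 0.29 with FSHB. Within groups, r of CHGB with POMC was 0.30 in LFC and -0.93 in HFC, the latter including HFC replicate 16.

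Of these 4 relations, SCG2 with PRL moved least when libraries were left out. Its r was 0.66 (permutation test, adjusted p = 0.0366) and its rho 0.56 (adjusted p = 0.132). It stayed between 0.57 and 0.74 when each library was left out in turn, and was 0.50 without HFC replicates 14 and 16. Within LFC r was 0.62 and within HFC 0.42, with exact permutation p of 0.114 and 0.299. With both genes centred on their group means r was 0.45 (permutation test, unadjusted p = 0.0853). LFC replicates 2 and 8 had the highest SCG2 and the highest PRL, and HFC replicate 16 the lowest of both.

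SCG3 had its highest rho with FSHB, at 0.56 (permutation test, adjusted p = 0.132), with r of 0.47. VGF showed r between -0.04 and 0.26 with the 3 hormones, and SCG5 between 0.11 and 0.16. CHGA and PRL gave r of 0.12 over all libraries and -0.56 without HFC replicates 14 and 16.

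Among the members themselves, 14 of 15 pairs had r above 0, and 10 of 15 had when the 2 libraries farthest from the median of the pair's second gene were left out. With all libraries 3 pairs had an adjusted p at or below 0.05 by r and 2 by rho. The same shares over all pairs of genes were not computed, so these counts are not read as particular to the members. SCG2 and SCG3 passed by both measures, with r of 0.87 and rho of 0.71 (permutation tests, adjusted p = 0.00385 and 0.0469). Without LFC replicate 2 and HFC replicate 11 r was 0.64, and within groups it was 0.97 in LFC and 0.62 in HFC. LFC replicate 2 was the highest library for both genes.

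SCG3 and SCG5 passed by rho alone, at 0.74 (permutation test, adjusted p = 0.0469), with r of 0.62 (adjusted p = 0.0523). VGF had r of 0.69 with SCG2 and 0.66 with SCG3 (permutation tests, adjusted p = 0.0366 for both). Without LFC replicates 2 and 8 they were 0.04 and 0.05. CHGA and CHGB had r of 0.57 (permutation test, adjusted p = 0.0916) and rho of 0.18, and without HFC replicate 16 r was 0.05. The chromogranins thus shared their lowest library but little order among the rest.

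**Figure D4:**
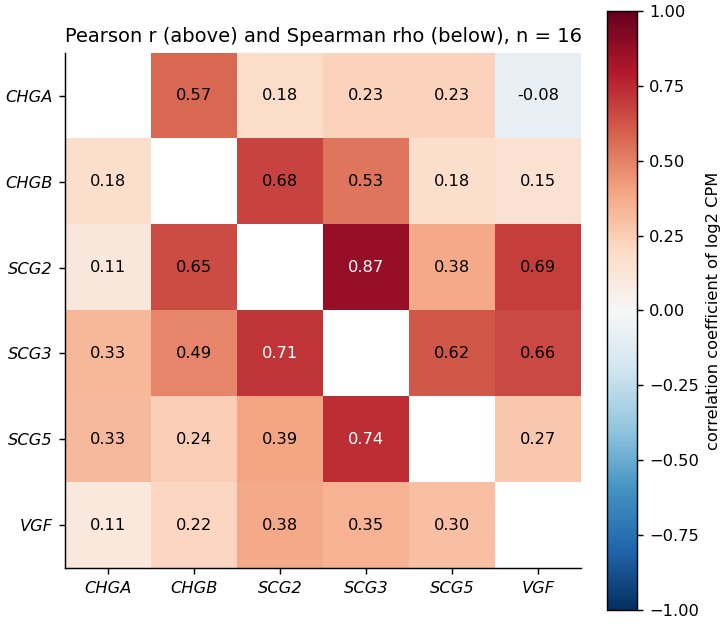
Correlation of log2 CPM between members over 16 libraries, with Pearson's r above the diagonal and Spearman's rho below it, coloured from -1 to 1. SCG2 with SCG3 is highest by r at 0.87, and SCG3 with SCG5 is highest by rho at 0.74.

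A pair of relations between proteins known to bind each other was also computed. SCG3 binds carboxypeptidase E, which trims basic residues from cut prohormones, and SCG3 and CPE gave r of 0.71 (permutation test, adjusted p = 0.0273) and rho of 0.63 (adjusted p = 0.0975). Without LFC replicate 5 and HFC replicate 14, the 2 libraries farthest in CPE, r was 0.82, and within groups it was 0.60 in LFC and 0.82 in HFC. SCG5 and PCSK2, its client convertase, gave r of -0.26 and rho of -0.16 (permutation tests, adjusted p = 0.541 and 0.677). The share of all pairs of genes with such values was not computed, so neither relation is read as particular to its pair.

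The genes whose pattern was most like each member over the 16 libraries were found by Spearman's rho. For CHGA they were CALM3 at 0.94, CD9 at 0.94 and S100A14 at 0.94. For CHGB they were F2RL1 at 0.94, RPN1 at 0.86 and FAM109A at 0.84. For SCG2 they were MYO15B at 0.83, NEK11 at 0.80 and PTPRN at 0.77, and PTPRN encodes a membrane protein of the dense-core granule itself.

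For SCG3 they were SPCS3 at 0.89, GLT8D1 at 0.88 and UFM1 at 0.85. For SCG5 they were SRPRB at 0.89, C12orf49 at 0.88 and UFSP2 at 0.84. SPCS3 belongs to the signal peptidase and SRPRB to the receptor of the signal recognition particle, both of which act where secretory proteins enter the endoplasmic reticulum. For VGF they were SYNPR at 0.82, CLSTN1 at 0.82 and EDIL3 at 0.81. These are the highest values out of all tested genes with a symbol, so they are a description of likeness and carry no test, and no member was among the nearest genes of another.

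Other genes of the granule were compared between the groups in 4 lists. Of 18 prohormone processing genes, 6 were higher and 12 lower in HFC with a median log2 fold change of -0.07, and 0 passed the threshold. The convertase PCSK1 was lower by a log2 fold change of -0.21 (SE 0.30), CPE by -0.17 (SE 0.20) and the convertase inhibitor PCSK1N by -0.30 (SE 0.33). The amidating enzyme PAM was higher by 0.19 (SE 0.22). None of these differences exceeded 1 SE.

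PCSK2, a convertase abundant in melanotrophs, had lowest, median and highest values of 2.47, 5.03 and 27.3 CPM in LFC and 2.66, 74.1 and 2595 CPM in HFC. HFC replicate 16 held the highest value and HFC replicate 11 the next at 299 CPM, while the groups overlapped. The log2 fold change was 5.34 with an SE of 1.28 (edgeR quasi-likelihood test, unadjusted p = 0.000633, adjusted p = 0.612). Without HFC replicate 16 it was 3.21 with an SE of 0.89 (edgeR, adjusted p = 0.779), and DESeq2 gave 3.07 over all libraries (adjusted p = 0.0798). The carboxypeptidase CPZ had the second smallest p of the list, with a log2 fold change of -0.64 (unadjusted p = 0.0780).

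Of 20 genes of granule formation and sorting, 18 were tested, 4 were higher and 14 lower, and the median was -0.11. PTPRN was lowest, with 223, 321 and 522 CPM as its lowest, median and highest values in LFC and 164, 240 and 404 CPM in HFC. Its log2 fold change was -0.46 with an SE of 0.19 (edgeR, unadjusted p = 0.0307, adjusted p = 0.803). SLC18A2, the vesicular monoamine transporter, was higher by 0.28 (unadjusted p = 0.0983).

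Of 30 genes of regulated exocytosis, 28 were tested, 9 were higher and 19 lower, and the median was -0.11, with 0 at an unadjusted p under 0.05. The smallest p values belonged to the synaptotagmin SYT4, with a log2 fold change of -0.33 (unadjusted p = 0.111), and the fusion clamp CPLX2, with -0.20 (unadjusted p = 0.111). Of 13 regulators of granin genes 12 were tested, 8 were higher and 4 lower, and the median was 0.05. CREM, a cAMP-responsive transcription factor, had a log2 fold change of -0.53 with an SE of 0.21 (edgeR, unadjusted p = 0.0232, adjusted p = 0.749). CRTC3, a coactivator of CREB, had 0.34 (unadjusted p = 0.128).

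**Figure D5:**
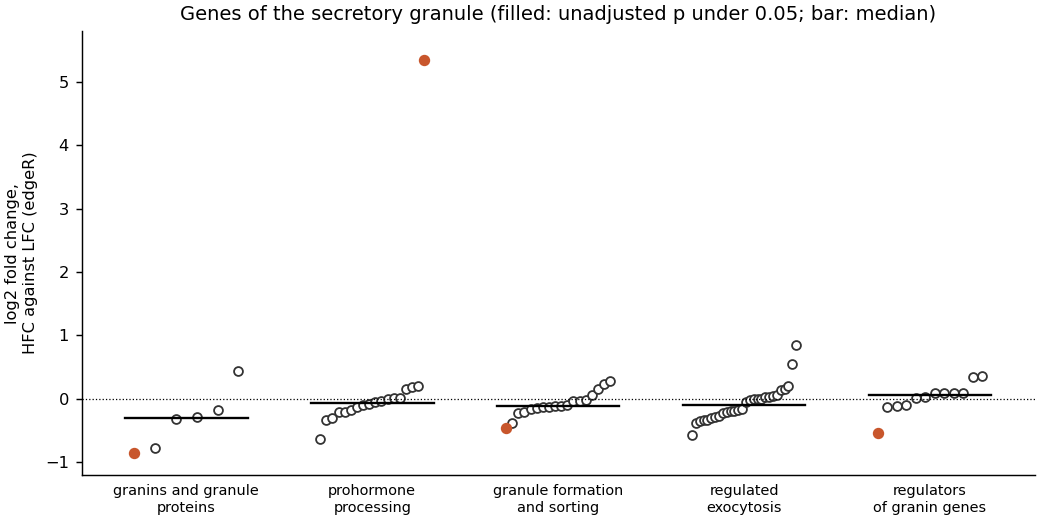
Log2 fold change from edgeR, HFC against LFC, of every tested gene of the members and of the 4 granule lists, with the bar at the median and filled points for an unadjusted p under 0.05. Medians lie between -0.31 for the members and 0.05 for the regulators, and PCSK2 stands alone at 5.34, or 3.21 without HFC replicate 16.

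The balance between members within a library was compared as well. CHGA reads per 100 CHGB reads had lowest, median and highest values of 4.64, 7.06 and 20.1 in LFC and 2.34, 15.2 and 25.5 in HFC. The difference in log2 ratio was 0.46 (exact permutation p = 0.382). SCG2 reads per 100 CHGB reads were 15.4, 17.4 and 46.3 in LFC and 12.6, 14.4 and 23.5 in HFC, a difference of -0.43 on the log2 scale (exact permutation p = 0.0623). Both ratios overlapped between the groups.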

How the data were processed

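Gene counts for 16 pituitary libraries were deposited by the authors as whole numbers of reads per Ensembl gene, not normalised. The submitters' notes name FastQC, STAR, RSEM, DESeq2 and Sscrofa11.1, and the methods describe a non-stranded TruSeq preparation sequenced in technical repeats, so overlapping antisense genes cannot be separated. A second deposited table of group means, fold changes and p-values was used only for symbols and gene positions. Symbols came from it for 10090 genes, from Ensembl names for 5455, from RefSeq overlap (POMC among them) for 379, and were missing for 9956. Column names were matched to sample titles by number, and 0 sample columns were left unused. No 2 libraries of a group agreed within sampling noise.

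Differences were tested with edgeR 4.0.16 (R 4.3.3; TMM, quasi-likelihood test, filterByExpr with a minimum of 10 counts), which kept 14319 genes and removed 11561, and p-values were adjusted over all of them by the Benjamini-Hochberg method. The biological coefficient of variation was 38.6%. A call needed an adjusted p of 0.05 and a fold of 1.3, as in the study. Log2 CPM used a prior count of 2. Exact permutation tests were two-sided over 12870 assignments, and correlations used 100000 resamples (scipy 1.17.1) or all orders within a group of 8. DESeq2 1.42.0 and limma 3.58.1 (voom), other scalings and filters, a robust fit and sets of libraries left out were alternatives. The fits were tested on simulated data.

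The members and lists were chosen with earlier results of these data known. Genes named are the members, POMC, PRL and FSHB, PCSK1, PCSK2, CPE, PCSK1N and PAM, the 2 genes of smallest unadjusted p in each list where none was called, and the 3 genes of highest Spearman's rho to each member. Marker genes of HFC replicate 16 are given as list sums, and GH1, CGA, RAX, AVPR1B and PAX7 were named after their values were seen. CADPS, UNC13A, RESP18 and INSM1 were not analysed here. Separate animals are the replicates.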

Additional observations from a re-analysis of the deposited data

Results flagged for a closer look

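Of 12 checks, 1 for each member in each group, 5 found a library far from the other 7 of its group. About 0.6 would be found if the 12 checks were independent and the values normally distributed. The checks share libraries, and the 5 lay in LFC replicates 2 and 5 and HFC replicate 16. The share of all genes with such a library was not computed, so the count is not read as particular to the members. CHGA was highest in LFC replicate 5 at 12.35 on the log2 CPM scale, against 10.14 to 11.05 in the other LFC libraries. SCG5 was also highest there, at 10.48 against 9.78 to 10.10. SCG2 was highest in LFC replicate 2 at 13.61, against 11.78 to 12.52 in the others. SCG3 was highest in the same library at 9.30, against 8.33 to 8.71. CHGB was lowest in HFC replicate 16 at 13.36, against 14.06 to 14.51 in the other HFC libraries.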

How the results depend on the processing

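The 6 group fold changes kept their direction in every alternative run, and none passed the threshold. Leaving out 1 library gave log2 fold changes of 0.27 to 0.79 for CHGA, -0.38 to -0.23 for CHGB, -0.97 to -0.55 for SCG2, -0.35 to -0.16 for SCG3, -0.23 to -0.11 for SCG5 and -0.89 to -0.35 for VGF. With limma-voom CHGA had 0.12 and VGF -0.46, and SCG5 had -0.08 without LFC replicate 5 and HFC replicate 14. Genes called between the groups numbered 0 with edgeR, also with each library left out, and 5 with DESeq2. VGF's difference in means turned to 0.055 without LFC replicates 2 and 8.

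Genes related to POMC numbered 592, and 1107 without a group term, 151 with total counts, 54 with total counts without the 10 most abundant genes, 230 without LFC replicate 5 and HFC replicate 14, 0 without these and HFC replicates 13 and 16, and 81 to 4120 with 1 library left out, the extremes being without HFC replicates 9 and 16. Genes related to PRL numbered 2, and 239, 4, 16 and 4 without a group term, with total counts, and without the same 2 and 4 libraries, and 0 to 108 with 1 left out, the highest without HFC replicate 11. Genes related to FSHB numbered 0, and 126 without a group term and 0 to 38 with 1 left out, the highest without HFC replicate 12. Members called were 0, or 0 to 1 for POMC with 1 library left out. The cause of these shifts was not tested.

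The slope of CHGA on POMC turned to -0.13 without LFC replicate 5 and -0.20 without it and HFC replicate 14. Correlations with hormones turned sign as follows. With POMC, r within LFC was 0.89 for CHGA, 0.30 for CHGB, 0.16 for SCG2 and 0.37 for SCG3. Without the 2 farthest libraries it was 0.57 for CHGA and -0.18 for VGF. It was 0.023 for SCG3 centred on group means, and -0.25 and -0.13 for SCG5 with total counts and without the 10 most abundant genes. With PRL, CHGA had -0.56 without the 2 farthest libraries and -0.037 within LFC, SCG5 had -0.18 centred and -0.40 within HFC, and VGF had -0.35 within HFC. With FSHB, CHGA had -0.036 without the 2 farthest libraries and -0.084 within LFC, SCG5 had -0.25 within LFC, and VGF had 0.036 with total counts, 0.035 without the 10 most abundant genes and 0.039 within LFC. With 1 library left out, r ranged from -0.17 to 0.61 for CHGA with POMC, 0.013 to 0.34 for SCG5 with POMC, -0.083 to 0.20 for VGF with POMC, -0.60 to 0.23 for CHGA with PRL, -0.033 to 0.28 for SCG5 with PRL, -0.036 to 0.48 for CHGA with FSHB, -0.017 to 0.30 for SCG5 with FSHB and -0.15 to 0.051 for VGF with FSHB. Between genes, r without the 2 farthest libraries turned to -0.19 for CHGA with CHGB, -0.12 for CHGA with SCG2, -0.13 for CHGA with SCG5, 0.024 for CHGA with VGF, -0.15 for CHGB with SCG5 and -0.14 for CHGB with VGF. Within LFC it turned to -0.17 for CHGA with SCG2. Within HFC it turned to -0.17 for CHGB with SCG5, -0.096 for CHGB with VGF and 0.070 for SCG5 with PCSK2. It also turned to -0.053 and -0.018 for CHGB with SCG5 and with VGF centred on group means, to -0.093 for CHGA with SCG5 without the 10 most abundant genes, and with 1 library left out to -0.14 for CHGA with SCG2 and -0.075 for CHGB with VGF. No paired analysis was possible because the groups share no replicate numbers. Each member had at least 1131 reads in every library.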

Other observations

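The members were also set against the first principal component of all genes, which held 41.8% of the variance, and against total counts, 12 relations chosen after the data were seen. CHGA had r of 0.61 with the component (permutation test, adjusted p = 0.180) and rho of 0.65 (adjusted p = 0.0958), and 0.46 without the 2 libraries farthest on it. Its r with log2 total counts was -0.47 (adjusted p = 0.391). For the other 5 members r with the component lay between -0.27 and 0.42, and none of the 12 had an adjusted p at or below 0.05. The component set LFC replicate 5 (126) and HFC replicates 13 (75.1) and 14 (56.6) apart from the other 13 libraries, whose scores were -53.4 to 11.3.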
